A study of Homo sapiens with 15 samples.

Results

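The 10 genes described here mark the epithelial or the mesenchymal state of a cell. They were chosen by name and not by their values from the 58302 genes of the count tables, though with earlier results of these data known. They comprise the classical cadherins CDH1, CDH2 and CDH3, the epithelial adhesion molecule EPCAM, the intermediate filament gene VIM, and the mesenchymal transcription factors SNAI1, SNAI2, ZEB1, ZEB2 and TWIST1. RNA-seq libraries were labelled for 5 groups of 3 replicates, 15 in all, covering C4-2B cells and the neuroendocrine-like DKD and ER cells with scrambled or Pax5 siRNA. Count tables of C4-2B alone, 3 libraries, entered this work, and DKD and ER cells were not analysed here, so that no cell lines or siRNAs were set against each other. C4-2B is an established prostate adenocarcinoma line derived from LNCaP, labelled wild type and given no treatment in its labels, and grown in RPMI with 10% fetal bovine serum. The study states in general that its experiments had 3 independent replicates. Nothing in the labels says that the 3 libraries came from separate cultures, so their spread may be technical.

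Epithelial cells hold each other through E-cadherin, the product of CDH1, whose cytoplasmic tail binds catenins and through them the actin skeleton. In the epithelial-mesenchymal transition, zinc finger factors of the SNAI and ZEB families and the helix-loop-helix factor TWIST1 repress CDH1 and other epithelial genes, while N-cadherin and vimentin rise. The ZEB factors and the miR-200 microRNAs repress each other, and the transition is studied in prostate cancer because carcinoma cells that lose adhesion can leave the gland.

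The libraries held between 44992971 and 49569026 counts. TPM, the unit of level used below, is a gene's count per base of exon scaled to the same sum in each library, so that levels of different genes can be set side by side. The labelled cell type was checked against its markers. All 8 prostate luminal markers were at 1 TPM or more in every library, with a summed level of 4378 to 4408 TPM. None of the 6 basal markers reached that level (summed 1.08 to 1.32 TPM), and TP63, the defining basal factor, had 0 counts. Of 10 fibroblast and muscle markers, COL1A1 alone reached 1 TPM in every library (summed 9.09 to 11.3 TPM), while COL1A2, DCN and DES had 0 counts. VWF alone of 6 endothelial markers (summed 3.44 to 3.92 TPM) and LYZ alone of 6 leukocyte markers (summed 2.05 to 2.99 TPM, HBB at 0 counts) reached it. Of the 6 neuroendocrine markers 3 did, with 45.1 to 46.7 TPM in sum, of which ENO2 gave 42.9 ± 0.958 TPM (SD, n = 3).

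The sequences that bear on ZEB1 and ZEB2 are the microRNAs of the miR-200 family and their matches in both transcripts. The family falls into 2 groups by its seed, the bases 2 to 8 that pair with a target, shown in capitals in the mature sequences from RefSeq (GRCh38.p14, all on the plus strand). The first 3 lines share 1 seed and the last 2 lines the other.
hsa-miR-200b-3p, chr1:1167160-1167181: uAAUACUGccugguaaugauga
hsa-miR-429, chr1:1169055-1169076: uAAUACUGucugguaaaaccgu
hsa-miR-200c-3p, chr12:6963742-6963764: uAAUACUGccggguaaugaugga
hsa-miR-200a-3p, chr1:1167916-1167937: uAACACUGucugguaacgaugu
hsa-miR-141-3p, chr12:6964155-6964176: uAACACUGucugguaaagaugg

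The reverse complements of these seeds, CAGTATT and CAGTGTT, were searched on the transcript strand of the 3′ untranslated regions of the canonical GENCODE 44 transcripts. ZEB1 held 9 matches in 2540 bases, 6 of CAGTATT and 3 of CAGTGTT. ZEB2 also held 9, in 5370 bases, 5 of CAGTATT and 4 of CAGTGTT. SNAI2 held 1 match, of CAGTATT, and the other 7 genes held none. Of 19300 such regions, 28.3% had at least 1 match and 0.585% had 5 or more, 16.1% had CAGTATT and 18.2% had CAGTGTT. Among the 2604 regions of 0.8 to 1.25 times the length of that of ZEB1, 1 had 9 or more, which was ZEB1 itself. Among the 1223 in the same range around ZEB2, 2 had, with ZEB2 itself as 1 of them. A match is a stretch of letters and not a measured site. A pair from each gene, 1 for each seed, shows the matches in capitals within 22 bases of the transcript strand (GRCh38, ZEB1 on the plus strand and ZEB2 on the minus strand).
ZEB1, chr10:31528563-31528584: gtcttcaaacctggCAGTATTa
ZEB1, chr10:31528032-31528053: aaaatcatcagaatCAGTGTTt
ZEB2, chr2:144389052-144389073: gcactaccatacatCAGTATTt
ZEB2, chr2:144388669-144388690: ctttgcaccagcttCAGTGTTa

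**Figure D1:**
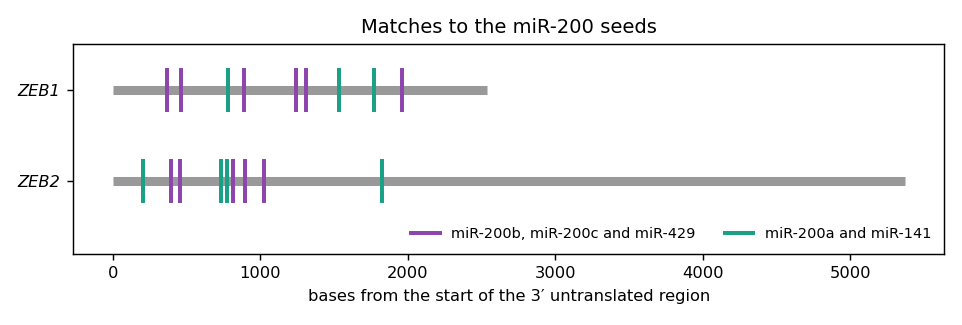
Positions of the miR-200 seed matches along the 3′ untranslated regions of ZEB1 and ZEB2, in bases from the start of the region. Each gene has 9 matches, and in ZEB2 they lie between bases 208 and 1825 of 5370.

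In these cells the epithelial genes CDH1 and EPCAM stood highest, SNAI2, VIM, SNAI1 and CDH3 followed at intermediate levels, and TWIST1, CDH2, ZEB1 and ZEB2 were close to 0. A level of at least 1 TPM in all 3 libraries, called expressed below, was reached by 6 of the 10 genes (60%), against 61.2% of all 19708 protein-coding genes and 32.8% of all genes. The median of the 10 mean levels was 6.02 TPM and that of all protein-coding genes 5.88 TPM. As a set the 10 genes were therefore near the background, and their levels ran from the top to the bottom of the protein-coding genes. In bulk RNA, a smaller share of cells that transcribe a gene and less RNA per cell cannot be told apart.

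**Figure D2:**
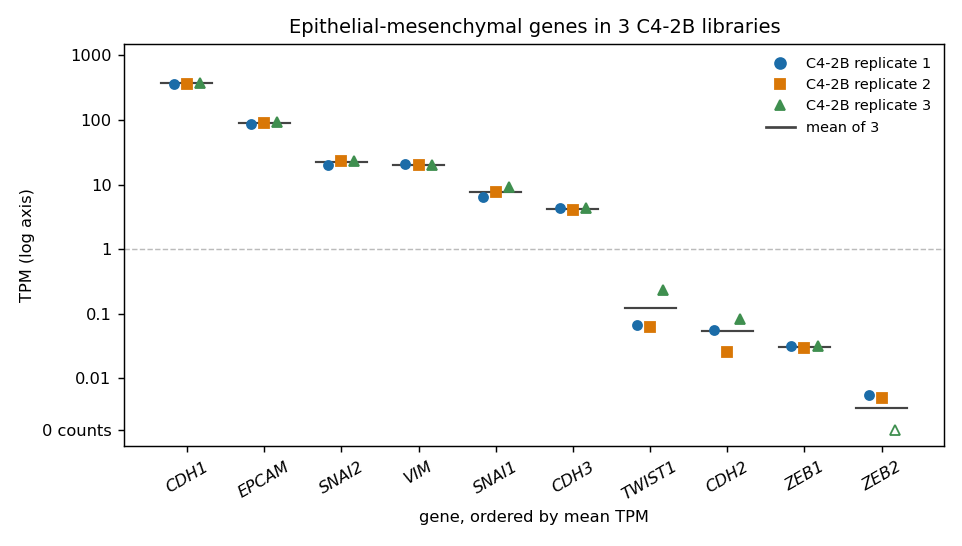
Levels of the 10 genes in the 3 C4-2B libraries, in TPM on a log axis, with open symbols for 0 counts, a bar for the mean and a dashed line at 1 TPM. CDH1 is at 366 to 376 TPM in the 3 libraries, and the 4 genes on the right stay below 1 TPM in each.

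CDH1 (ENSG00000039068, chr16:68737225-68835548, plus strand) had 32753, 35988 and 34345 counts in replicates 1, 2 and 3. These are 366, 366 and 376 TPM, with a mean of 369 ± 6.07 TPM (SD, n = 3). The level was above 98.7% of the 17227 protein-coding genes with any count, and 227 of them were higher. The 3 libraries lay close together, with an SD of 1.64% of the mean. In its exons 5.62% of the bases are also exons of an antisense RNA, ENSG00000260798, which had 12, 21 and 9 counts.

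Of the other type I cadherins, CDH3 encodes P-cadherin, found in basal layers of stratified and glandular epithelia, and lies next to CDH1 (ENSG00000062038, chr16:68636189-68722616, plus strand). CDH3 had 395, 395 and 403 counts, or 4.37, 3.98 and 4.37 TPM, with a mean of 4.24 ± 0.227 TPM (SD, n = 3). CDH1 was 87.2 ± 4.26 times higher per library on the TPM scale. CDH2, the gene of N-cadherin of neural and mesenchymal cells (ENSG00000170558, chr18:27950966-28177446, minus strand), had 4, 2 and 6 counts. Its level was 0.0557, 0.0254 and 0.0821 TPM, a mean of 0.0544 ± 0.0284 TPM (SD, n = 3), and the exact Poisson interval of its 12 counts at 95% is 6.20 to 21.0 counts. All 3 libraries held reads of CDH2, at a level above 10.1% of the protein-coding genes with a count.

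Summed over the 5 type I cadherins, CDH1 gave 98.1%, 98.3% and 98.1% of the TPM, a mean of 98.2% ± 0.121 (SD, n = 3). CDH3 gave 1.13% ± 0.0529, CDH15, the muscle M-cadherin, 0.540% ± 0.0646, and CDH2 0.0144% ± 0.00730 (SD, n = 3 each). CDH4, the retinal R-cadherin, was at 0.595 ± 0.115 TPM from 51, 70 and 77 counts and was not expressed by the 1 TPM rule. Over the 3 libraries together the ratio of CDH1 to CDH2 in TPM was 6884, with a counting interval of 3941 to 13323. Of the 13 type II cadherins only CDH24 was expressed, at 14.9 ± 0.671 TPM (SD, n = 3), which is above CDH3 and CDH15. CDH8, CDH12 and CDH22 came next at 0.218, 0.154 and 0.0503 TPM, and CDH9, CDH10, CDH18 and CDH20 had 0 counts, which allows at most 0.0137 to 0.0181 TPM by a limit of 3 counts over the libraries. The median of this list was 0.0156 TPM.

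The partners that tie cadherins to the skeleton were measured beside CDH1. Of 13 catenins and junction partners 10 were expressed, with a median of 22.8 TPM. JUP, the gene of plakoglobin, was at 291 ± 1.63 TPM, CTNNB1, the gene of β-catenin, at 192 ± 2.77, CTNND1, the gene of p120-catenin, at 152 ± 0.846 and CTNNA1, the gene of α-catenin, at 125 ± 0.952 (TPM, SD, n = 3). CDH1 was 1.27 ± 0.0146 times the level of JUP and 1.92 ± 0.0480 times that of CTNNB1 (SD, n = 3 each). CDH1 was thus higher than each of these 4 partners in all 3 libraries.

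EPCAM, a surface glycoprotein of simple epithelia that is used to capture carcinoma cells (ENSG00000119888, chr2:47345158-47387601, plus strand), had 3172, 3563 and 3494 counts. Its level was 86.9, 88.9 and 93.9 TPM, with a mean of 89.9 ± 3.63 TPM (SD, n = 3), above 91.8% of the protein-coding genes with a count. No exon base of EPCAM lies under another gene. Of 13 genes listed as partners of EPCAM 11 were expressed, with a median of 20.1 TPM. The 4 highest were the tetraspanin CD9 at 301 ± 5.19 TPM, the tight junction gene CLDN7 at 226 ± 3.73, the membrane protease gene ST14, which encodes matriptase, at 156 ± 3.87 and its inhibitor SPINT1 at 148 ± 2.48 (TPM, SD, n = 3). CLDN7, whose product binds EPCAM, shares 12.3% of its exon bases with another gene, so that its level is uncertain.

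VIM encodes vimentin, the intermediate filament of mesenchymal cells (ENSG00000026025, chr10:17228259-17237593, plus strand). It had 1551, 1639 and 1523 counts, or 20.7, 20.0 and 20.0 TPM, a mean of 20.2 ± 0.444 TPM (SD, n = 3). VIM was therefore expressed in every library, at a level above 63.0% of the protein-coding genes with a count. Of its exon bases 24.4% lie under antisense genes, 641 under VIM-AS1 and 619 under ENSG00000234961, the largest share among the 10 genes. Reads over exons of both genes were counted for neither, which lowers the level of VIM, and with the length outside such bases it was 25.5 TPM. Since the counts ignore strand, any antisense reads over its other exon bases were counted for VIM, so its level is uncertain.

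Among 15 intermediate filament genes 7 were expressed. The luminal keratins KRT18 and KRT8, at 254 ± 2.29 and 197 ± 1.52 TPM, and KRT19, at 36.6 ± 1.71 TPM, were above VIM (SD, n = 3 each). KRT8 and KRT18 have processed copies elsewhere in the genome, and 16.3% of the exon bases of KRT18 lie under other genes, so both levels are uncertain. VIM made up 4.36%, 4.25% and 4.27% of the summed TPM of VIM, KRT8 and KRT18, a mean of 4.29% ± 0.0591 (SD, n = 3). NES, the gene of nestin, was at 15.0 ± 0.706 TPM, and DES, the muscle filament gene, had 0 counts.

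Of the 5 mesenchymal factors, SNAI2 and SNAI1 were expressed and TWIST1, ZEB1 and ZEB2 were not. SNAI2, which encodes Slug (ENSG00000019549, chr8:48917768-48921740, minus strand), had 652, 822 and 754 counts. This is 20.4, 23.4 and 23.2 TPM, with a mean of 22.3 ± 1.67 TPM (SD, n = 3), above 65.2% of the protein-coding genes with a count. SNAI1, which encodes Snail (ENSG00000124216, chr20:49982999-49988886, plus strand), had 159, 206 and 229 counts. Its level was 6.51, 7.68 and 9.19 TPM, with a mean of 7.79 ± 1.35 TPM (SD, n = 3), so that the SD was 17.3% of the mean. SNAI2 was above SNAI1 in all 3 libraries, by ratios of 3.14, 3.05 and 2.52. Neither gene shares exon bases with another gene. The copy SNAI1P1 had 0, 6 and 0 counts.

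TWIST1 (ENSG00000122691, chr7:19020991-19117672, minus strand) had 2, 2 and 7 counts, or 0.0679, 0.0618 and 0.233 TPM. The mean was 0.121 ± 0.0972 TPM (SD, n = 3), and without replicate 3 it was 0.0648 TPM, so that 1 library held most of its reads. ZEB1 (ENSG00000148516, chr10:31318495-31529814, plus strand) had 4 counts in each library, or 0.0319, 0.0290 and 0.0313 TPM. Its mean was 0.0308 ± 0.00150 TPM (SD, n = 3), and the exact Poisson interval of its 12 counts is the same as for CDH2, so that the equal counts say little on precision. ZEB2 (ENSG00000169554, chr2:144364364-144524583, minus strand) had 2, 2 and 0 counts, or 0.00553, 0.00503 and 0 TPM. Its mean of 0.00352 ± 0.00306 TPM (SD, n = 3) rests on 4 counts, with an exact Poisson interval of 1.09 to 10.2, and was 0.00528 TPM without replicate 3. The copy ZEB2P1 had 1, 0 and 4 counts, and reads that fit both places equally were left out of both.

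Together the 5 factors summed to 27.0, 31.2 and 32.6 TPM, a mean of 30.3 ± 2.91 TPM (SD, n = 3). SNAI2 gave 73.9% ± 2.5 of this sum, and SNAI1 and SNAI2 together 99.5% ± 0.270 (SD, n = 3 each). In TPM over the 3 libraries, SNAI2 was 187 times the level of TWIST1, with a counting interval of 104 to 374. It was 729 times the level of ZEB1, with an interval of 417 to 1410, and the interval of its ratio to ZEB2 began at 2465. The level of CDH1 was 16.6 ± 1.19 times that of SNAI2 (SD, n = 3). That SD does not cover the choice of gene length: with the longest transcript CDH1 was at 386 TPM and SNAI2 at 14.2 TPM.

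In the order of mean TPM, CDH1 was followed by EPCAM, SNAI2, VIM, SNAI1, CDH3, TWIST1, CDH2, ZEB1 and ZEB2. The ranges of the 3 libraries did not overlap for 6 of the 9 neighbouring pairs. They overlapped for SNAI2 and VIM, for TWIST1 and CDH2, and for CDH2 and ZEB1, and these neighbours were not called separate. Within libraries TWIST1 was 1.22 to 2.84 times CDH2, though on 11 and 12 counts in all. The ratio of SNAI2 to VIM was 0.984 to 1.17 and that of CDH2 to ZEB1 0.874 to 2.62. CDH1 was 4.11 times EPCAM, EPCAM 4.02 times SNAI2, VIM 2.60 times SNAI1 and SNAI1 1.84 times CDH3 in mean TPM. These ratios rest on the deposited gene lengths and change with the length used. With the longest transcript of each gene CDH1 was at 386, EPCAM at 119, SNAI1 at 6.27 and CDH3 at 4.83 TPM. The widest gap between neighbours lay between CDH3 and TWIST1, at 35.1 times, and ZEB1 was 8.74 times ZEB2 with 12 counts against 4. The order of SNAI2 and VIM turned with the gene length used: with the longest transcript of each gene VIM was at 31.8 TPM and SNAI2 at 14.2 TPM, and with the length outside overlaps they were at 25.5 and 21.3 TPM.

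The antisense neighbours of the 10 genes were read separately because the counts ignore strand. VIM-AS1 had 186, 208 and 198 counts, at 6.58 ± 0.145 TPM, and VIM was 3.08 ± 0.128 times higher (SD, n = 3 each). CDH3-AS1 had 10, 4 and 23 counts, at 0.495 ± 0.395 TPM, and shares 694 bases, 11.1% of the exon bases of CDH3, with that gene. At the ZEB1 locus the order was the opposite. ZEB1-AS1 had 217, 224 and 246 counts, at 3.91, 3.67 and 4.35 TPM and a mean of 3.98 ± 0.342 TPM (SD, n = 3), and the ratio of ZEB1-AS1 to ZEB1 over the libraries was 129, with a counting interval of 74.0 to 250. ZEB2-AS1 had no read in any of the 3 libraries, and 3 counts over them would be 0.0247 TPM.

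**Figure D3:**
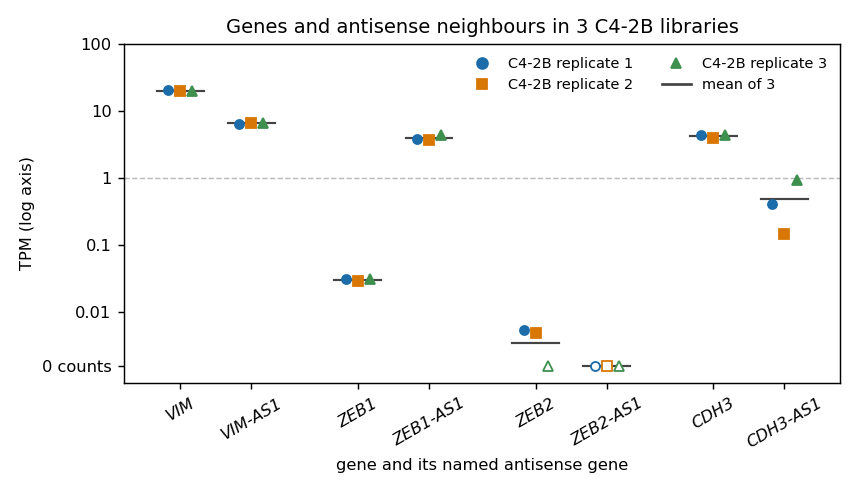
Levels of VIM, ZEB1, ZEB2 and CDH3 beside their named antisense genes in the 3 C4-2B libraries, in TPM on a log axis, with open symbols for 0 counts and a bar for the mean. ZEB1-AS1 lies at 3.67 to 4.35 TPM, above ZEB1 in every library, and the other 2 antisense genes with counts lie below their partner.

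ZEB1-AS1 lies on the minus strand (chr10:31206278-31320447), and its 5′ end is inside ZEB1. The exons of both genes share 366 bases, 4.23% of the exon bases of ZEB1, and reads there were counted for neither gene. Elsewhere, without strand, reads of ZEB1-AS1 and of a ZEB1 transcript on the other strand cannot be told apart. The RefSeq promoter windows (GRCh38.p14, 250 bases before to 50 after a start site) covered CDH2, VIM, ZEB1 and ZEB2, 4 of the 10 genes, with 11 windows, and CDH1, CDH3, EPCAM, SNAI1, SNAI2 and TWIST1 were not matched. They were searched for the E-box CACCTG, which reads CAGGTG on the other strand, the motif that SNAI and ZEB factors are known to bind. Most of the 11 windows were those of ZEB1, which therefore had the most places for a match. A ZEB1 window held 3 E-boxes and another ZEB1 window 1, and the other 9 windows of these genes held none. Of all 35116 windows, 20.6% held at least 1 and 0.635% held 3 or more. In the window with 3, all 300 bases are exon in the count annotation of ZEB1 and 97 of them also in that of ZEB1-AS1. It held the most E-boxes of the 11 windows and is shown with them in capitals (plus strand).
ZEB1, chr10:31318966-31319265: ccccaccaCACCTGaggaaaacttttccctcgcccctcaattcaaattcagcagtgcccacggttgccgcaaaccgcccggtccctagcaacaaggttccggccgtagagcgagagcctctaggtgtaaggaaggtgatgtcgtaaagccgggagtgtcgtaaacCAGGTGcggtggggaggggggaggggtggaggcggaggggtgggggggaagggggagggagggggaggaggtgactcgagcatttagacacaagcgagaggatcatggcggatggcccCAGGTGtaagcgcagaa

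The loci of the microRNAs shown above were counted as genes. MIR200CHG, the host transcript of MIR200C and MIR141 on chromosome 12, had 130, 116 and 131 counts, a mean of 23.9 ± 2.69 TPM (SD, n = 3). The hairpin genes had few counts. MIR141 had 13, 17 and 9, MIR429 had 10, 8 and 11, MIR200A had 9, 7 and 3, MIR200B had 3, 2 and 7, and MIR200C had 4, 3 and 4. All 5 hairpins and the host passed 1 TPM in every library, which for genes as short as a hairpin takes few reads. At the MIR205 locus, whose product also has ZEB transcripts among its known targets, MIR205HG had 0, 0 and 4 counts and MIR205 had 0, 1 and 0. Mature microRNAs were not measured, and gene counts of total RNA do not give their levels.

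The other regulators of the transition were counted by list. Of 15 further transcription factors 11 were expressed, with a median of 7.94 TPM. The highest were the inhibitors ID1 and ID3, at 161 ± 0.895 and 160 ± 0.348 TPM, and the E-proteins TCF3 and TCF12, which pair with helix-loop-helix factors, at 60.1 ± 0.188 and 30.3 ± 0.885 TPM (SD, n = 3 each). SNAI3 was at 2.26 ± 0.503 TPM, and SNAI1 was 3.64 ± 1.30 times higher (SD, n = 3 each). TWIST2, the paralog of TWIST1, had 2, 0 and 0 counts. Of the 7 zinc finger relatives of SNAI and ZEB, SNAI2, SNAI1 and SNAI3 were expressed, and SCRT1 came next at 0.381 ± 0.0184 TPM (SD, n = 3).

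The genes whose products work with or degrade Snail and ZEB1 were expressed in 19 of 20 cases, with a median of 37.1 TPM. The highest were HDAC1, a histone deacetylase, at 183 ± 3.01 TPM, SMARCA4, a chromatin remodeller, at 75.9 ± 0.910, CSNK2A1, a casein kinase subunit, at 75.5 ± 1.71 and GSK3B, a kinase that marks Snail for degradation, at 73.8 ± 1.08 (TPM, SD, n = 3). PAK1, with 12, 16 and 21 counts, was the exception. Transcripts of all but 1 of these partners were thus counted at 1 TPM or more, where ZEB1 itself had 12 counts in all.

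Of 15 epithelial transcription and splicing factors 12 were expressed, with a median of 14.8 TPM. EHF, an ETS factor of epithelia, was at 528 ± 14.1 TPM, FOXA1, the forkhead partner of the androgen receptor, at 330 ± 3.85, GRHL2, an activator of CDH1, at 202 ± 2.74 and ESRP1, an epithelial splicing regulator, at 72.1 ± 2.02 (TPM, SD, n = 3). Of 14 genes of the TGF-β and BMP route, which can induce SNAI and ZEB factors, 11 were expressed, with a median of 10.1 TPM. The highest were the SMAD corepressors SKI and SKIL, at 94.7 ± 3.0 and 20.1 ± 1.43 TPM, followed by SMAD4 at 16.0 ± 0.564 and the receptor TGFBR1 at 15.7 ± 0.259 TPM (SD, n = 3 each). TGFBR2, the type II receptor that the ligands bind first, had 9, 6 and 4 counts and was named after its values were seen.

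Among 25 mesenchymal matrix and contractile genes 8 were expressed, 32% against 61.2% of protein-coding genes, and the median was 0.389 TPM. COL1A2, DCN, POSTN and MMP9 had 0 counts. FN1, the gene of the matrix protein fibronectin, was the highest of the list and was above CDH1 in every library. It had 107819, 119543 and 112623 counts, a mean of 435 ± 5.43 TPM (SD, n = 3), and was 1.18 ± 0.00780 times the level of CDH1 and 21.5 ± 0.692 times that of VIM. COL6A1, COL6A2 and LOX, which encode collagen VI chains and a collagen cross-linking enzyme, came next at 90.3 ± 1.10, 24.4 ± 1.16 and 11.6 ± 0.460 TPM (SD, n = 3 each). In the same libraries the fibroblast genes COL1A2 and DCN were at 0 counts, while COL1A1, of the same marker list, had 1069, 1005 and 1065 counts, a mean of 7.09 ± 0.581 TPM (SD, n = 3). The 10 fibroblast and muscle markers summed to at most 11.3 TPM, and their part in the level of FN1 was not tested. Shares of expressed genes in other lists lay on both sides of the 61.2%. Above it were partners of Snail and ZEB1 (95%), EPCAM partners (84.6%) and epithelial factors (80%). So were the TGF-β and BMP route (78.6%), junction partners (76.9%) and further transcription factors (73.3%). Below it were type I cadherins (60%), intermediate filaments (46.7%), zinc finger relatives (42.9%) and type II cadherins (7.69%).

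**Figure D4:**
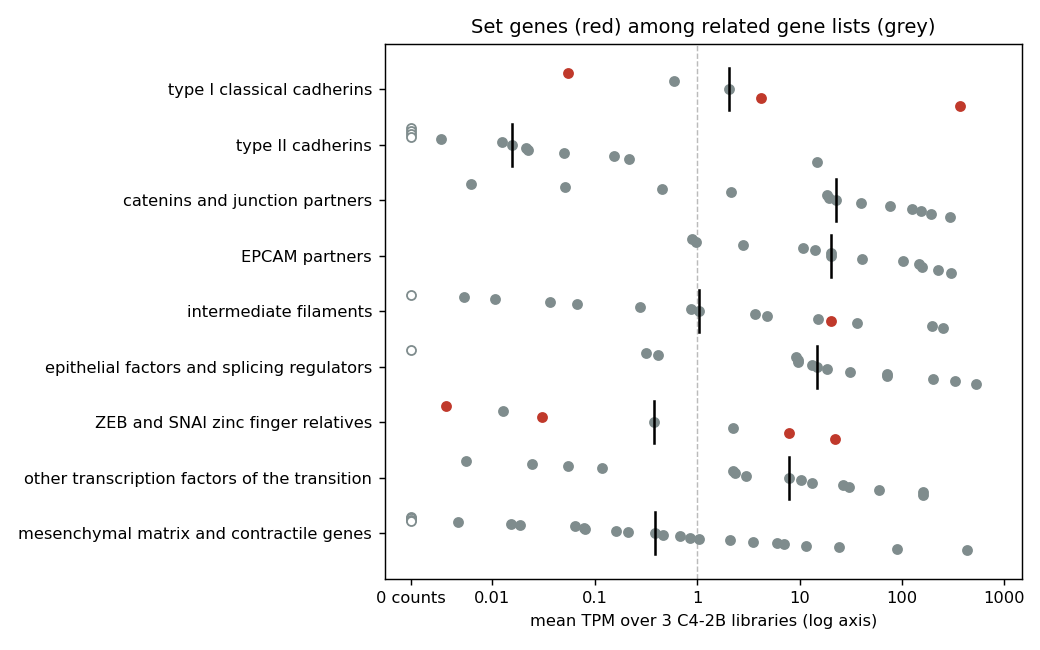
Mean level over the 3 C4-2B libraries of each gene in 9 lists, in TPM on a log axis, with the 8 of the 10 genes that these lists hold in red, other genes in grey, open circles for 0 counts and a bar for the list median. The medians of the junction partners (22.8 TPM) and epithelial factors (14.8 TPM) lie above 1 TPM, and those of the type II cadherins (0.0156 TPM) and mesenchymal matrix genes (0.389 TPM) below it.

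How far each gene differed between the libraries was tested by the fit of its 3 counts to the scaled library sizes (chi-square). Each chi-square was divided by 2 because the mates of a read pair were counted separately, and p-values were adjusted by Benjamini-Hochberg over the 22229 genes with at least 30 counts. By this test 176 genes (0.792%) differed between libraries at an adjusted p under 0.05. CDH1, EPCAM, SNAI2, VIM, SNAI1 and CDH3 could be tested, and 0 of these 6 passed. At an unadjusted p under 0.05 in the same test 0 of the 6 passed as well, against 2503 (11.3%) of all genes tested. TWIST1, CDH2, ZEB1 and ZEB2 had too few counts to be tested. With the chi-square left undivided, 3835 genes (17.3%) passed, and CDH1 and SNAI1 were the 2 among the 10 genes. An unadjusted p under 0.05 was then found for 4 of the 6 genes and for 7128 of the 22229 genes tested.

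SNAI1 varied most among the 6 genes tested. Its counts deviated from the expected value by -16.2% in replicate 1, -1.55% in replicate 2 and 17.4% in replicate 3, a range of 0.49 on the log2 scale. The chi-square adjusted p of SNAI1 was 0.485, and 0.0320 without the division. The counts of CDH1 deviated by 1.42% at most, in replicate 3, with a chi-square adjusted p of 0.502, and of 0.0362 without the division. EPCAM and SNAI2 had chi-square adjusted p-values of 0.584 and 0.625, and CDH3 and VIM of 0.877 and 0.889. Of all genes of the other lists 2 passed, EHF with a chi-square adjusted p of 0.0361 at a log2 range of 0.06, and the ligand gene TGFB2, with 321, 243 and 370 counts, at 0.0202. These tests compare libraries of 1 group with each other, not conditions.

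**Figure D5:**
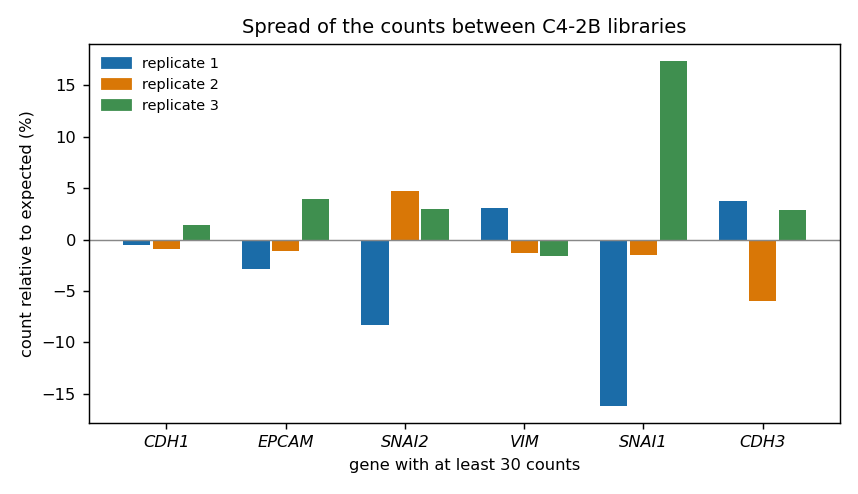
Deviation of the counts from those expected from the scaled library sizes, in percent, for the 6 genes with at least 30 counts, with 1 bar per C4-2B library. The bars of SNAI1 reach from -16.2% to 17.4%, and those of CDH1 stay within 1.42%.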

How the data were processed

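Total RNA was depleted of ribosomal RNA and made into strand-specific libraries. The authors aligned the read pairs to hg38 (GRCh38) with STAR, given as version 2.7.0f in the submitters' processing notes, which also name Trim Galore. The deposited tables hold unnormalized counts, made by the authors with featureCounts (Subread 1.6.3) on Ensembl release 90 genes, run with 3 threads and no strand or pair option. Reads on either strand were therefore counted, mates were counted separately, and reads over exons of several genes or aligned to several places were not counted, which lowers the levels of overlapping genes and genes with copies. The other value per gene in the deposited tables is its length, the number of its exon bases. TPM values that the study made with StringTie were not used.

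Groups and replicate numbers came from the sample titles. Of 58302 genes, 57532 were matched to a symbol by Ensembl identifier. TPM was computed from counts and length over all genes. RN7SL2, a short abundant RNA, took 19.6% of the TPM total, which lowers every other TPM. Gene coordinates are 1-based, as deposited. Library sizes were scaled with TMM (edgeR 4.0.16), or with size factors (DESeq2 1.42.0) as an alternative. The chi-square test had 2 degrees of freedom and was run on simulated counts in which both mates of each pair were always counted. That is the assumption behind the division by 2, so the simulation cannot show whether the division holds for these libraries. Exact Poisson intervals (95%) and the limit of 3 counts cover counting error only, and are too narrow since both mates count and PCR copies carried no molecular identifier.

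The 10 genes, all named, were picked by name and not by their values. Both they and the lists were chosen with earlier results of these data known. Of each other list its expressed genes were counted and its 4 highest, and any overlapping a member, were named. TWISTNB was not matched to a symbol. A gene of the EPCAM partner list is not reported here, and that list was shortened by it. Others, such as NES, SNAI3, TWIST2, PAK1, CDH4 and TGFB2, were named after their values were seen. Alternatives were 2 other gene lengths, a reduced TPM denominator, CPM, other thresholds, scalings and minimum counts, the undivided chi-square and leaving out each replicate.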

Additional observations from a re-analysis of the deposited data

How the results depend on the processing

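No paired analysis was possible because only 1 group, C4-2B, was analysed here. Under every alternative run, 6 of the 10 genes were expressed, and 6 or 7 of 9 neighbouring pairs had ranges apart. With the longest transcript as length, the CDH1 share of type I cadherins was 97.9% and the sum of the 5 factors 20.6 TPM, and with lengths outside overlaps VIM made up 4.92% of VIM, KRT8 and KRT18. With CPM that share was 4.58% and the sum 20.2 CPM. SNAI2 and VIM then changed order, as did SNAI1 with CDH3, and TWIST1 with CDH2 and ZEB1. Leaving mitochondrial and the 10 most abundant genes out of the denominator gave a sum of 43.8 TPM, since it multiplied every TPM by 1.45. Leaving out 1 replicate gave CDH1 shares of 98.1% to 98.2%, sums of 29.1 to 31.9 TPM and VIM shares of 4.26% to 4.31%.

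The undivided chi-square, in which mates of a pair count as independent, called 3835 genes, 2 of the 10 among them. How far the counting of mates accounts for this number was not tested. Leaving out 1 replicate gave 38 genes without replicate 1, 223 without replicate 2 and 49 without replicate 3, with 0 of the 10 genes each time and a smallest chi-square adjusted p of 0.319 to 0.577 among them. Under the other scalings and minimum counts the count of the 10 genes past the threshold was also 0, with a smallest chi-square adjusted p of 0.484 to 0.688. Depth limits TWIST1, CDH2, ZEB1 and ZEB2, whose 4 to 12 counts cannot show a difference between libraries.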
